A study of Mus musculus with 12 samples.

Results

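Activity-induced immediate early genes were examined in maps of N6-methyladenosine (m6A), a methylated base within messenger RNA, from mouse hippocampus. The members were 7 genes, namely Arc, Dusp1, Junb, Fos, Egr1, Nr4a1 and Npas4. They were chosen by position, as every m6A peak that overlapped 1 of 7 windows on the mouse genome build mm9, 1 window around each gene. The windows held 80 peaks, of which 23 came from 2-week replicate 1, 18 from 2-week replicate 2, 20 from 6-week replicate 1 and 19 from 6-week replicate 2. Peaks that shared at least 1 bp were merged, which gave 26 regions at these genes out of 70674 in the whole series. The 4 peak lists came from m6A immunoprecipitation (m6A-IP) of fragmented poly(A)+ RNA from hippocampi of wild-type C57BL/6 males, 2 libraries from mice aged 2 weeks and 2 from mice aged 6 weeks. No mutation or treatment is labelled in either age. Input libraries of unselected fragments served as controls, and their tags entered only through the control column of each list. Which input library stands behind each column is not stated in the submitters' notes. The control tags of a list are called its input tags below. RNA-seq libraries of adults, with and without a knockout of Fto, belong to the same series and were not analysed here.

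Immediate early genes are transcribed within minutes of neuronal firing from transcription factors that are already present in the cell, above all CREB and the serum response factor. Their mRNAs are short-lived, and in the hippocampus they are widely used as marks of recently active neurons. Most of the 7 encode transcription factors that switch on later genes, while Arc acts at the synapse and Dusp1 switches off the kinase signalling that induced it. The m6A mark is placed while the transcript is made, is common in long internal exons and around stop codons, and is best known for shortening the life of the mRNAs that carry it.

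The promoters are shown because CREB is known to bind the cAMP response element (CRE) or its half-site, which the selection by window did not use. RefSeq's promoter table on GRCm38.p6 held 5 of the 7 genes, with Dusp1, Fos, Junb, Npas4 and Nr4a1 matched by symbol. The 250 bases before each start were searched on both strands for the CRE half-site TGACG, read as CGTCA on the other strand. Each line gives the stretch from 20 bases before the first half-site to 20 bases after the last, cut at the edge of the searched bases, with half-sites in capitals.
Dusp1 (chr17:26508588-26508683, minus strand): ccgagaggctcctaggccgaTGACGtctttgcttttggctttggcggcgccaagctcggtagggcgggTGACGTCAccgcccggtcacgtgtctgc
Fos (chr12:85473741-85473848, plus strand): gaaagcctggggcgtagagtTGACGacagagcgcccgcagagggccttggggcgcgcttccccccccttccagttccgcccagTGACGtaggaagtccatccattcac
Junb (chr8:84978830-84978874, minus strand): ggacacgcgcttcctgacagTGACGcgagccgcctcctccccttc
Npas4 (chr19:4990116-4990170, minus strand): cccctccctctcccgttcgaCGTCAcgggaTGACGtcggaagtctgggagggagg
Nr4a1 (chr15:101266596-101266830, plus strand): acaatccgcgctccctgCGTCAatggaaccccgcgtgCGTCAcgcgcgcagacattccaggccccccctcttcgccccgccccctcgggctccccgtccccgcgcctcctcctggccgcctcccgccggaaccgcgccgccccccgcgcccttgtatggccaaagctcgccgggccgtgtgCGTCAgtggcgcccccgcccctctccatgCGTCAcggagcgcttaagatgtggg

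All 5 promoters held at least 1 half-site, against 17.8% of the 32851 promoters in the table searched over the same length. The number ran from 1 in Junb to 2 in Fos and in Npas4, 3 in Dusp1 and 4 in Nr4a1. The half-site nearest to a start lay 40 to 36 bases before it in Nr4a1. The full palindrome TGACGTCA, which overlaps 2 of the 3 half-sites counted, occurred in Dusp1 alone of the 5, and in 1.55% of all promoters. A TATAAA box was found in Fos alone of the 5 and in 12.4% of all promoters. The serum response element was found in 0 of the 5 and in 1.47% of all promoters, which says only that these letters are not in the window searched. A match is a description of letters and not a binding site.

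In the libraries as a whole, 33239 to 39259 peaks were listed, from 16.1 to 23.4 M immunoprecipitated (IP) tags and 11.7 to 29.3 M control tags (M, mega; a tag is a counted read), if the deposited signal was scaled to 10 M tags. Values are given as tags per 10 M tags of the same library in the peak with the most IP tags of each list. Such peaks of a region can lie at different positions within it. Each deposited list held only peaks with a fold of at least 3 over control, so a region missing from a list is not a region without the mark. Because the 2-week libraries held more IP tags, an effect of age on the list counts cannot be told apart from one of depth. The 6-week replicate 1 gave more IP tags per 10 M than replicate 2 at 10 of the 11 member regions called in all 4 lists, and at 81.1% of all 10203 such regions. The tissue is whole hippocampus, so fewer cells of a type and less RNA per cell cannot be told apart. Both libraries of an age are labelled as biological replicates with no animal named, so p-values measure the spread between these samples.

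At the 7 genes, 11 of 26 regions were called in all 4 lists, with 14.4% of all regions as the background. These 11 lay in 6 genes, 3 in Egr1, 2 each in Arc, Nr4a1 and Dusp1 and 1 each in Junb and Npas4. Fos had none. A further 4 regions were called in 3 lists (15.4% of the member regions, against 10.5% of all regions), 3 in 2 lists (11.5% against 16.4%) and 8 in a single list (30.8%, background 58.6%). None was called in both 2-week lists and no 6-week list (background 6.41%), and none in both 6-week lists and no 2-week list (background 1.92%). Every member region was therefore either shared between the ages or called in 1 library of its age only.

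**Figure D1:**
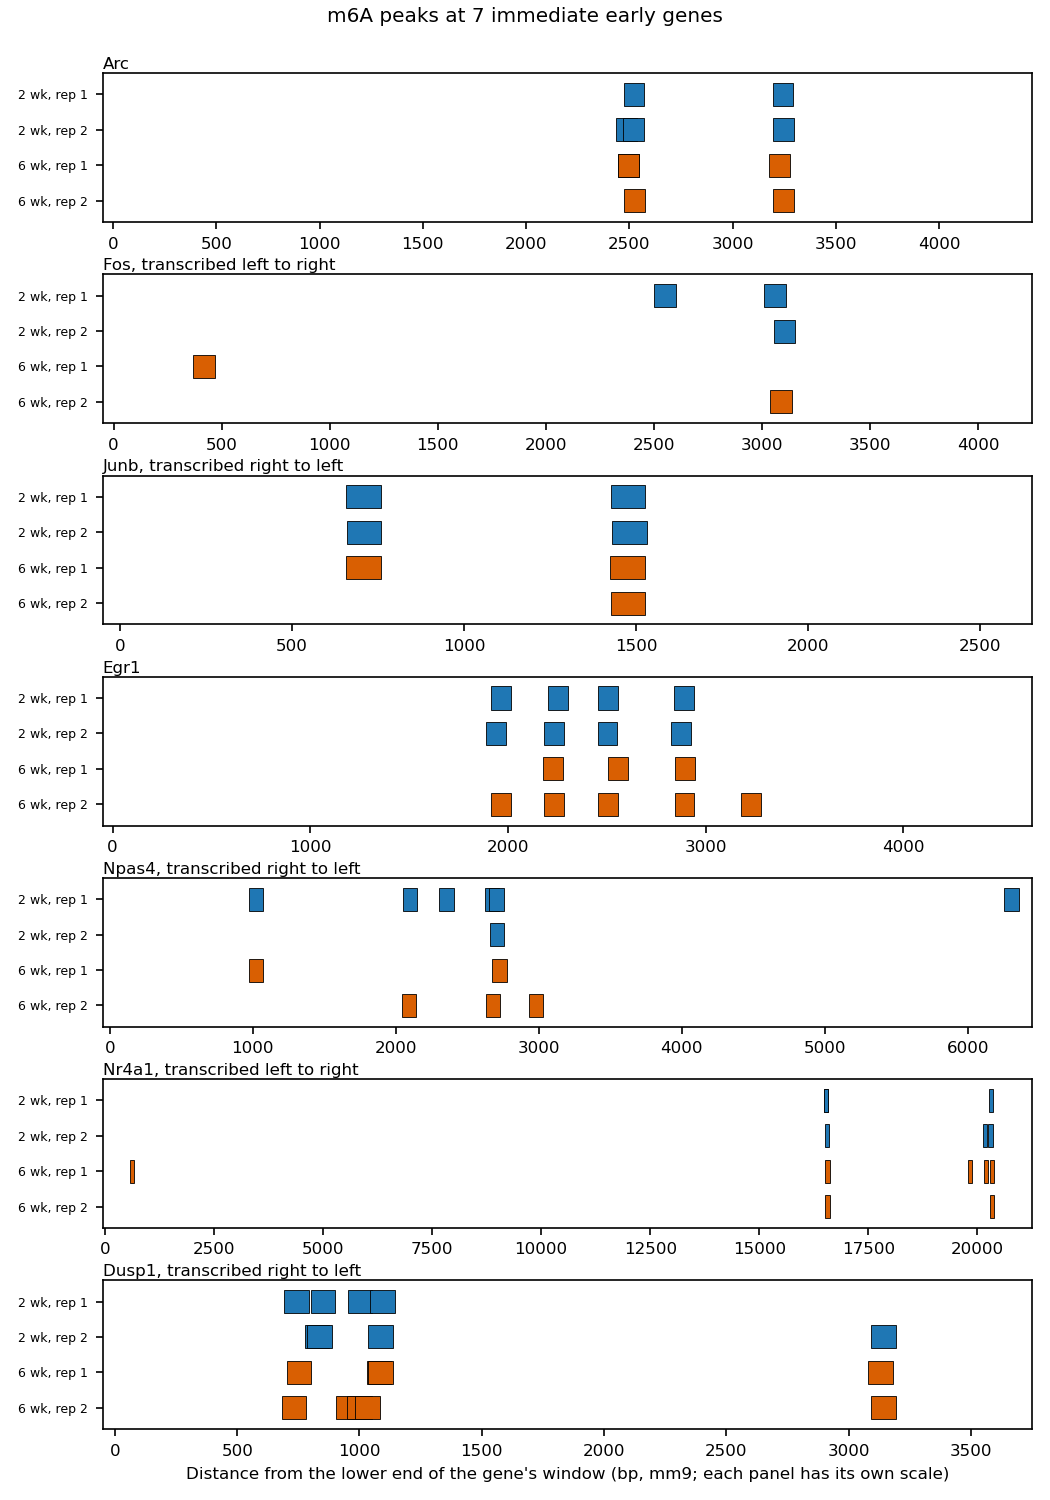
Position of every m6A peak at the 7 genes, 1 row per library, as the distance in bp from the lower end of each gene's mm9 window; bars are peaks, blue for 2 weeks and orange for 6 weeks, and each panel has its own scale. Peaks printed on the same interval are drawn on top of each other. Arc shows 2 positions in all 4 rows, while most Npas4 positions appear in 1 or 2 rows.

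The input tags in a peak measure how much of the mRNA was present there, the IP tags measure methylated fragments, and the ratio of IP to input is the enrichment. Each was compared between 6 and 2 weeks with edgeR's quasi-likelihood test over the 4577 regions that had 1 peak, and no more, in every list, and 6 of these were member regions in Arc, Junb, Egr1 and Nr4a1. Changes are log2 values on the TMM scale, which centres the median region near 0 (−0.03 for input, 0.03 for IP). With total tags as the scale the median of all regions stood at −0.53 for input and −0.37 for IP, so changes are relative to the other regions. In input, 1 of 6 member regions rose, in Arc, against 1.11% of all regions higher and 1.07% lower at 6 weeks (51 and 49 regions, or 21 and 370 with total tags as the scale). In IP, 1 of 6 rose, in Junb, against 0.852% higher and 0.24% lower. None changed in enrichment (background 0%, with 127 of the 4577 regions at an unadjusted p under 0.05 in edgeR, and 0 regions called by DESeq2 or limma as well). The median change of the 6 was 0.70 in input, 0.37 in IP and −0.13 in enrichment.

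**Figure D2:**
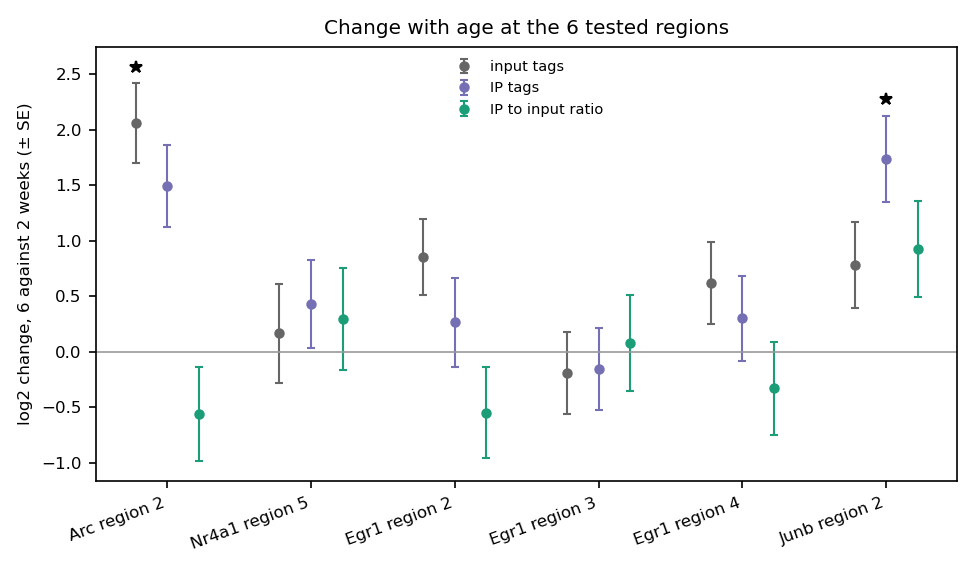
Log2 change from 2 to 6 weeks (vertical axis, ± SE) at the 6 tested regions of Arc, Nr4a1, Egr1 and Junb, for input tags (grey), IP tags (purple) and their ratio (green). Stars mark an adjusted p under 0.05, which only the Arc input value of 2.06 and the Junb IP value of 1.74 reached.

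Arc encodes a capsid-forming protein of the postsynapse that promotes removal of AMPA receptors. Its mRNA travels into dendrites. The window chr15:74499000-74503300 held 10 peaks in 2 regions, both called in all 4 lists. The region at the higher coordinate, chr15:74502176-74502297 (Arc region 2), had 25.2 and 27.9 input tags per 10 M in the 2-week replicates and 95.02 and 59.8 in the 6-week replicates. Both 6-week libraries lay above both 2-week libraries, with means of 26.6 ± 1.89 and 77.4 ± 24.9 (SD, n = 2 each). The input tags rose by a log2 of 2.06 ± 0.36 (SE; edgeR, Benjamini-Hochberg adjusted p = 7.45e-05), and by p the region ranked 6 among the 4577.

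The IP tags at Arc region 2 were 138 and 145 per 10 M at 2 weeks and 340 and 257 at 6 weeks. The groups again did not overlap, and the log2 change of 1.49 ± 0.37 (SE) stood just outside the threshold (edgeR, Benjamini-Hochberg adjusted p = 0.0542). The authors' fold over control was 5.46 and 5.21 at 2 weeks and 3.58 and 4.30 at 6 weeks, so both 6-week values were the lower ones. The share of all regions with such an order in fold was not counted, for this region or for those below. The enrichment differed by −0.56 ± 0.42 (SE) on the log2 scale, which did not pass (edgeR, unadjusted p = 0.192, adjusted p = 0.999). At this region the input change passed the test, and the changes in IP and in the ratio did not.

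The Arc input call rested on both 2-week libraries. Without 2-week replicate 1 the change was 2.08 (edgeR, Benjamini-Hochberg adjusted p = 0.732) and without replicate 2 it was 2.04 (adjusted p = 0.468), and in either case no region of the table was called in input. Such a fit takes the spread of the lone 2-week library from the 6-week pair. With limma the change was 1.47 (Benjamini-Hochberg adjusted p = 0.10).

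The region at the lower coordinate, chr15:74501436-74501575 (Arc region 1), had 22.2 and 49.3 input tags per 10 M at 2 weeks and 49.4 and 64.9 at 6 weeks. The 6-week values were the higher ones, although the lower of them nearly equalled the 2-week replicate 2. Its IP tags were 180 and 381 per 10 M at 2 weeks and 298 and 345 at 6 weeks, and the groups overlapped. The authors' folds were 8.12 and 7.73, then 6.04 and 5.31, lower in both 6-week libraries as at the neighbouring region 601 bp away. In a fit over all 10203 regions called in 4 lists, with the peaks of a list summed, its input changed by 1.21 ± 0.38 (SE; edgeR, Benjamini-Hochberg adjusted p = 0.139), which did not pass. In 6-week replicate 1 a pair of peaks printed on the same interval here carried 440 and 481 IP tags, so the printed interval is not where all of their tags were counted.

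The regions outside the 7 windows whose 8 values ran most like those of Arc region 2 were chr6:127722199-127722324, chr14:70920356-70920486 and chr9:111294360-111294466. Likeness was the root mean squared difference of centred log2 tags over 4 IP and 4 control values, and stood at 0.194, 0.201 and 0.224 against a median of 0.997 over all tested regions. Their input tags changed by 2.90, 2.59 and 2.12 on the log2 scale. They were picked for their likeness, so these changes are a description.

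Dusp1 is a nuclear phosphatase that inactivates MAP kinases and so ends the signal that induced it. The window chr17:26642200-26645800 held 17 peaks in 3 regions, and the gene lies on the minus strand in RefSeq. Dusp1 region 2 (chr17:26643105-26643344) had 46.5 and 62.7 IP tags per 10 M at 2 weeks and 42.8 and 38.8 at 6 weeks. Both 6-week values were the lower ones, while the input tags of 10.6 and 8.91, then 6.33 and 12.0, overlapped. Relative to the other regions the IP change was −0.30 ± 0.44 with peaks summed and 0.03 ± 0.39 with the highest peak of each list (SE; edgeR, Benjamini-Hochberg adjusted p = 0.782 and 0.983), so no fall was detected and the sign turned.

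Dusp1 region 1 (chr17:26642882-26643101), only 4 bp away, had 27.3 and 31.8 IP tags per 10 M at 2 weeks and 22.3 and 14.5 at 6 weeks. These peaks were not at the same position, with 26642892-26642992 and 26642987-26643087 at 2 weeks, then 26642903-26643003 and 26642882-26642982. The replicate 2 peaks of the 2 ages did not overlap each other. Before scaling, the region had 19 and 11 control tags at 2 weeks but 1 and 2 at 6 weeks (6.48 and 6.54, then 0.63 and 1.71 per 10 M). The authors' folds of 4.21, 4.86, 35.24 and 8.51 for the libraries in the same order therefore rest at 6 weeks on almost no control tags. With peaks summed the input changed by −1.78 ± 0.82 (SE; edgeR, Benjamini-Hochberg adjusted p = 0.340), which did not pass. In the fit with peaks summed the enrichment there changed by 1.56 ± 0.86 (SE; edgeR, Benjamini-Hochberg adjusted p = 1.00), and at region 2 by −0.27 ± 0.49, with neither past the threshold. Dusp1 region 3 (chr17:26645280-26645392), the one nearest to the gene's start, was missing only from the list of 2-week replicate 1, and its folds of 3.51, 3.63 and 3.19 lay close to the lowest fold listed.

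Junb is a partner of Fos in the AP-1 transcription factor, in which it often takes the place of the more active Jun. Its window chr8:87500500-87503000 held 7 peaks in 2 regions. Junb region 2 (chr8:87501925-87502030) had 113 and 160 IP tags per 10 M at 2 weeks and 505 and 215 at 6 weeks. Both 6-week libraries were above both 2-week libraries, with replicate 1 at 2.35 times replicate 2. The IP tags rose by a log2 of 1.74 ± 0.39 (SE; edgeR, Benjamini-Hochberg adjusted p = 0.0386), ranking 34 by p among the 4577 regions.

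Input tags at Junb region 2 were 20.1 and 52.3 per 10 M at 2 weeks and 55.7 and 27.3 at 6 weeks, and the ages overlapped. The log2 change of input was 0.78 ± 0.39 (SE; edgeR, Benjamini-Hochberg adjusted p = 0.320). The authors' folds were 5.62 and 3.07 at 2 weeks and 9.05 and 7.87 at 6 weeks, with both 6-week values higher. The enrichment changed by 0.92 ± 0.43 (SE), which had an unadjusted p of 0.0405 and did not pass (edgeR, adjusted p = 0.999). Where both Arc regions showed lower folds at 6 weeks, Junb region 2 showed higher ones, but the difference between these regions was not tested. Nr4a1 region 5 and Dusp1 region 1 also had both 6-week folds above both 2-week folds, at Dusp1 region 1 on 1 and 2 control tags at 6 weeks. The share of all regions with either order in fold was not counted.

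The Junb IP call was lost without 2-week replicate 1 (1.57; edgeR, Benjamini-Hochberg adjusted p = 0.566) and without 2-week replicate 2 (1.93; adjusted p = 0.299). It was also lost with total tags as the scale (1.40; edgeR, adjusted p = 0.248) and with limma (1.29; adjusted p = 0.269). In both of these fits no region of the table was called in IP. In the fit over 10203 regions with the highest peak of each list, chosen after the data were seen, the Junb change was 1.73 (edgeR, adjusted p = 0.0816). That fit called no region in IP either. Arc region 2 passed in IP beside Junb with DESeq2 (adjusted p = 0.0114) and without either 6-week library. Junb region 1 (chr8:87501158-87501259), 666 bp away, was missing only from 6-week replicate 2, and had 91.3, 112 and 166 IP tags per 10 M with folds of 7.04, 3.55 and 4.84 in the other libraries.

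Fos, the AP-1 subunit whose mRNA is the classical mark of an active neuron, had the fewest peaks, 5 in the window chr12:86814500-86818600. They formed 3 regions and carried 23 to 51 IP tags and 3 to 13 control tags each, before scaling. Fos region 3 (chr12:86817511-86817655) was called in 3 lists, with 14.9 and 22.2 IP tags per 10 M at 2 weeks and 29.7 in 6-week replicate 2. Its folds of 3.37, 3.40 and 4.34 lay near the listing limit of 3. Fos region 1 (chr12:86814868-86814968), 418 bp from the end of the window at which transcription begins, appeared in 6-week replicate 1 alone, and Fos region 2 (chr12:86817001-86817101) in 2-week replicate 1 alone. No Fos region was called in every list, so no age comparison was made for this gene.

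**Figure D3:**
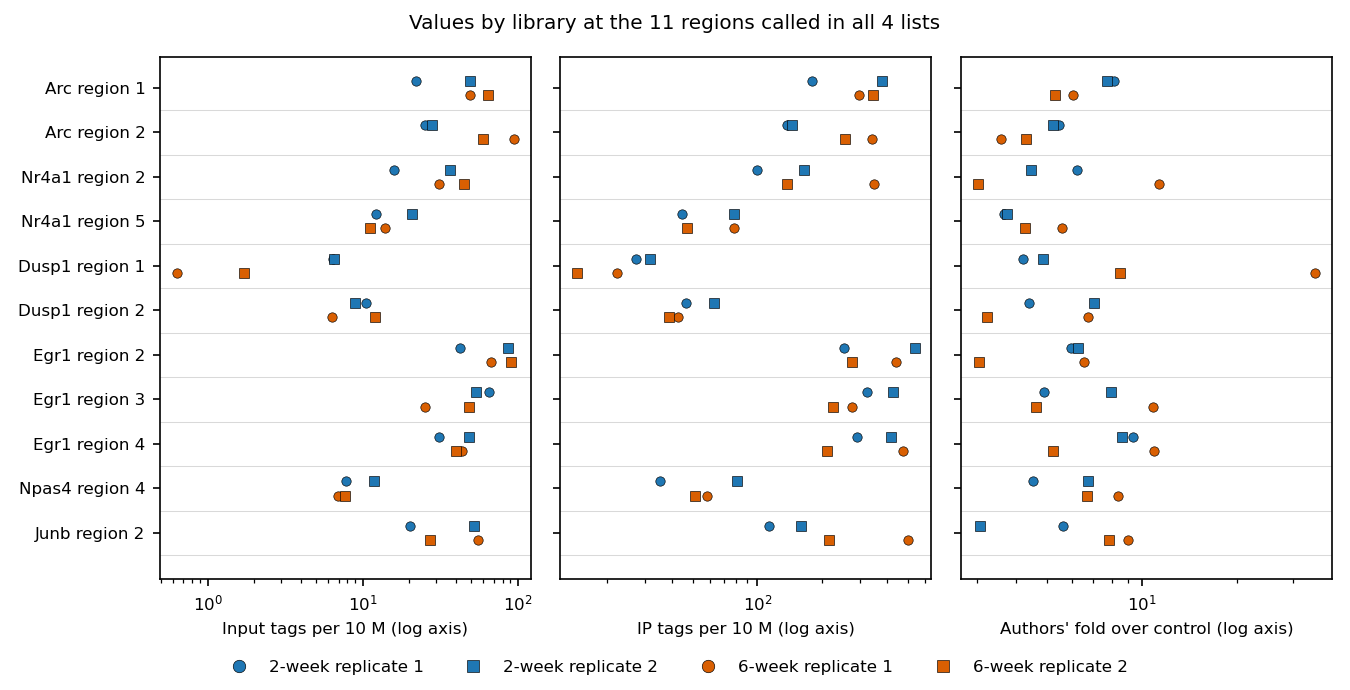
Input tags per 10 M, IP tags per 10 M and the authors' fold over control (log axes) at the 11 member regions called in all 4 lists; each point is 1 library, blue for 2 weeks and orange for 6 weeks, circles for replicate 1 and squares for replicate 2. At Arc region 2 both orange points lie above both blue points in input and IP and below them in fold, and at Dusp1 region 1 the 6-week input points are the lowest plotted.

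Across the 11 regions called in all 4 lists, the 6-week input tags per 10 M lay above both 2-week values in 2 regions, both in Arc, against 6.95% of all such regions. At Arc region 1 this order rested on a near tie, 49.4 in 6-week replicate 1 against 49.3 in 2-week replicate 2. The 6-week input tags lay below in 3 (Dusp1 region 1, Egr1 region 3 and Npas4 region 4), where the background was 46.6%, and overlapped in 6. IP tags lay above in 2 (Arc region 2 and Junb region 2; background 6.49%), below in 3 (both Dusp1 regions and Egr1 region 3; background 41.7%) and overlapped in 6. Some of these orders compare peaks at different positions within a region, as at Dusp1 region 1 and Egr1 region 3. At Dusp1 region 1 the replicate 2 peaks of the 2 ages did not overlap each other. With 2 libraries an age, an exact two-sided permutation test of one region cannot give a p under 0.333.

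Egr1 is a zinc finger transcription factor needed for lasting synaptic potentiation, and had 3 neighbouring regions called in every list. Its window chr18:35020500-35025000 held 16 peaks in 5 regions, 150 to 234 bp apart from one to the next. Regions 2, 3 and 4 were called in all 4 lists, region 1 was missing only from 6-week replicate 1, and region 5 was called in 6-week replicate 2 alone.

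Egr1 region 2 (chr18:35022678-35022803) had 42.6 and 86.1 input tags per 10 M at 2 weeks and 67.1 and 90.5 at 6 weeks, and 254 and 539 IP tags, then 440 and 276. The 2-week replicates differed 2.02 times in input and 2.12 times in IP, and the ages overlapped in both. The input change of 0.86 ± 0.34 (SE) did not pass (edgeR, Benjamini-Hochberg adjusted p = 0.184), and it passed without 6-week replicate 1 (1.16; adjusted p = 0.0379). The IP change was 0.27 ± 0.40 (SE), and with total tags as the scale its sign turned to −0.15.

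Egr1 region 3 (chr18:35022953-35023108) had 65.8 and 54.1 input tags per 10 M at 2 weeks and 25.3 and 48.7 at 6 weeks. Its IP tags were 322 and 430, then 275 and 224. Both 6-week libraries lay below both 2-week libraries in each fraction, the opposite order to Arc region 2. The peak of 6-week replicate 1 began at 35023008, while those of the other libraries began at 35022953 or 35022954. Relative to the other regions the changes were small, at −0.19 ± 0.37 for input and −0.16 ± 0.37 for IP (SE; edgeR, Benjamini-Hochberg adjusted p = 0.857 and 0.871), and the input sign turned without 2-week replicate 1 or 6-week replicate 1.

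Egr1 region 4 (chr18:35023325-35023444) had 31.0 and 48.7 input tags per 10 M at 2 weeks and 43.7 and 40.1 at 6 weeks, with folds of 9.35, 8.61, 10.92 and 5.24. The ages overlapped in input, in IP and in fold. The changes were 0.62 ± 0.37 in input and 0.30 ± 0.38 in IP (SE; edgeR, Benjamini-Hochberg adjusted p = 0.444 and 0.736). The 3 tested regions in the Egr1 window thus gave input changes from −0.19 to 0.86, with standard errors of 0.34 to 0.37.

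Nr4a1, an orphan nuclear receptor that limits excitatory synapses, had the longest window, chr15:101084500-101105600, with 13 peaks in 5 regions. Nr4a1 region 5 (chr15:101104751-101104884) had 44.8 and 77.5 IP tags per 10 M at 2 weeks and 77.5 and 47.2 at 6 weeks, and 12.3 and 20.8 input tags, then 13.9 and 11.1. Each age had 1 high and 1 low IP library. The authors' folds were 3.65 and 3.73, then 5.56 and 4.26, with both 6-week values higher. The log2 change was 0.17 ± 0.45 in input and 0.43 ± 0.39 in IP (SE; edgeR, Benjamini-Hochberg adjusted p = 0.906 and 0.619), and the input value was −0.36 with total tags as the scale.

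Nr4a1 region 2 (chr15:101100980-101101109) had 99.8 and 164 IP tags per 10 M at 2 weeks and 350 and 137 at 6 weeks. The 6-week replicate 1 stood above both 2-week values and replicate 2 between them, and the 6-week folds of 11.29 and 3.02 were the highest and the lowest of any Nr4a1 peak. In the fit with peaks summed, input changed by 1.15 ± 0.42 and IP by 1.21 ± 0.41 (SE; edgeR, Benjamini-Hochberg adjusted p = 0.213 and 0.151), and neither passed. Region 4 was called in 1 library of each age, and regions 1 and 3 in 6-week replicate 1 alone with 19 and 23 IP tags.

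Npas4 is a transcription factor of neurons that organises inhibitory synapses and is induced by calcium entry. Its window chr19:4984000-4990300 held 12 peaks in 6 regions, of which 1 was called in all 4 lists. Npas4 region 4 (chr19:4986623-4986776) had 35.4 and 80.1 IP tags per 10 M at 2 weeks and 58.3 and 51.5 at 6 weeks. The 6-week values lay between those of 2 weeks. Input tags were 7.85 and 11.9, then 6.97 and 7.68, lower in both 6-week libraries, but relative to the other regions the change was 0.29 ± 0.53 (SE; edgeR with peaks summed, Benjamini-Hochberg adjusted p = 0.860).

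The other Npas4 regions were called in 1 or 2 lists, and 4 of these 5 were called in 2-week replicate 1. Region 6 (chr19:4990256-4990356) crossed the upper end of the window, with 11 IP tags and 3 control tags in 2-week replicate 1. The fold of 26.27 at region 2 (chr19:4986042-4986148) in that library rested on 21 IP tags and 1 control tag.

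The 7 genes stood at different levels among all peaks of a list. For the peak with the most IP tags in each region and list, the share of the list's peaks with fewer IP tags was 90.6% to 98.8% for Arc, 72.6% to 98.5% for Egr1 and 85.8% to 98.4% for Junb. It was 14.7% to 97.2% for Nr4a1, 40.3% to 78.6% for Dusp1, 37.9% to 66.2% for Fos and 5.77% to 82.6% for Npas4. By the median share the order was Egr1, Arc, Junb, Nr4a1, Dusp1, Npas4 and Fos. Neighbours in this order overlapped in range. Control tags gave medians of 96.5% for Arc and 96.4% for Egr1, and 55.2% for Npas4 at the other end, so the genes with high IP peaks also had high input. These shares compare peaks printed at nearly the same width, 100 bp for at least 99.99% of each list, although the width over which tags were counted is not established.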

How the data were processed

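Members and lists were chosen with earlier results of these data known. The sources are 4 peak lists, 1 per m6A-IP library, so replicates were not pooled. The submitters' processing notes name HOMER (no version), Cufflinks 2.2.1, TopHat2 2.0.13 and 2.1.1, Bowtie2 2.2.3 and build mm9, without roles; neither the options of peak calling nor the input library behind each control column is stated there. Per the file headers, the authors deposited IP tags as a normalized signal, as whole counts in 2-week replicate 1 and scaled to the control in the others, control tags scaled in 2-week replicate 1 and unscaled in the others, and a fold ratio over control. Dividing by the value of 1 tag gave whole tags (within 0.2) for 100% of peaks; a control value of 0.5 was set to 0.

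All members are named, with values for regions in every list. Fits used edgeR 4.0.16 (quasi-likelihood, TMM, width offset, Benjamini-Hochberg, threshold 0.05) over 4577 regions, and enrichment was the interaction of fraction and age. They were also run on simulated data, the outcome of which is not given and is not used as support here. Alternatives used DESeq2 1.42.0, limma 3.58.1 (pseudocount 1), other scales, filters and region sets. R 4.3.3, Python 3.11.15, pandas 2.3.3, numpy 2.4.6 and matplotlib 3.10.9 were used. No mm9 annotation was used, so exons, other genes and marker genes are not described. Replicate numbers were not taken as pairs.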

Additional observations from a re-analysis of the deposited data

How the results depend on the processing

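Of 203 values of single regions under other settings (leaving out the fits without the width offset, which are the same fit, and values with no adjusted p), 176 kept direction and side of the threshold, 8 lost and 5 gained a call, and 14 turned sign. The member count higher in input (1) was 0 with limma and 0 of 2 with peak starts within 20 bp (a set without Arc region 2), and 0 to 2 leaving out each library. The count higher in IP (1) was 0 with total tags, with limma and with the highest peak of each list (chosen after seeing the data), 2 with DESeq2 and with the replicate block, and 0 to 2 leaving out each library. Same-numbered libraries' deviations correlated at 0.0262 in IP and 0.0526 in control tags, so the numbers were not used as pairs; the block moved IP calls over all regions from 39 higher and 11 lower to 112 and 78, brought Arc region 2 past the threshold in IP (1.49; edgeR, adjusted p = 0.00939) and changed no other member call. At 8-fold or more over control the genes held 16 peaks and 12 regions, 0 in every list and 1 at 6 weeks only (Dusp1 region 1). Regions called at 2 weeks only numbered 0 to 3 when each library was left out, and those at 6 weeks only also 0 to 3.

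Signs turned only at values outside the threshold. With total tags, Nr4a1 region 5 input was −0.36, Egr1 region 2 IP −0.15 and Egr1 region 4 IP −0.045, and with limma −0.34, −0.087 and −0.14. Leaving out each library gave −0.11 to 0.47 for Nr4a1 region 5 input, −0.81 to 0.31 for Egr1 region 3 input, −0.13 to 0.81 for Egr1 region 2 IP, −0.33 to 0.0051 for Egr1 region 3 IP, −0.00079 to 0.55 for Egr1 region 4 IP and −0.31 to 0.51 for Egr1 region 3 enrichment. The cause was not tested. Over all regions, 51 input calls were up and 49 down, against 22 and 14 with DESeq2 (3017 regions without an adjusted p), 21 and 370 under total tags, 4 and 46 with limma, 14 and 14 with starts within 20 bp, 28 and 21 with peaks summed, 0 without either 2-week library and 85 and 72 without 6-week replicate 1. IP calls (39 and 11) became 0 with total tags, limma or the highest peak, 60 and 45 with DESeq2, 20 and 9 with at least 40 control tags, 17 and 5 with starts within 20 bp, 72 and 28 with peaks summed, 3 and 3 or 3 and 1 without 2-week replicate 1 or 2, and 167 and 126 or 402 and 325 without 6-week replicate 1 or 2. Enrichment calls (0) were 2 higher without 6-week replicate 2. Low tag counts limit Fos, Npas4 and Dusp1 most, where control tags per peak went down to 3, 1 and 1.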

Other observations

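At the 11 member regions called in all 4 lists, the 2-week replicate 2 had more IP tags per 10 M than replicate 1 in 11 of 11 regions, with a median ratio of 1.45. Over all 10203 such regions this held in 62.3%, with a median ratio of 1.11. In control tags per 10 M the same order held in 9 of 11 member regions (median ratio 1.57) and in 57.8% of all regions. Member regions in the window of 1 gene are not independent. This was noticed after the values were seen, and no test was made.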
